A study of Mus musculus with 4 samples.

Results

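The genes described here encode receptors, ligands, target genes and nuclear partners of the Notch pathway. They are the 10 of the 25814 genes in the deposited tables that carry the names Notch1, Notch2, Notch3, Jag1, Jag2, Dll1, Hes1, Hey1, Rbpj and Maml2, and they were chosen by name and not by their values. RNA was sequenced from keratinocytes (KCs), the main cells of the epidermis, which had been grown from the tail skin of adult 129/sv mice. There were 4 libraries of polyadenylated RNA, 2 labelled wild-type (WT) and 2 labelled Nfat5 knockout (Nfat5-/-), from sibling mice with or without the gene of the transcription factor NFAT5. All cultures were untreated and were kept in serum-free medium with low calcium, and per the study's methods the tails had been shipped overnight on ice. The time in culture of these libraries is not given in the sources used here. The series speaks of independent experiments, but no animal is named for any library, so p-values measure only the spread between these samples.

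In Notch signalling a membrane ligand (Jagged or Delta-like) on a neighbouring cell binds a Notch receptor, which is then cut first by an ADAM protease and next by γ-secretase. The freed intracellular part enters the nucleus, where it joins the DNA-binding protein RBPJ and a Mastermind-like co-activator and switches on targets such as the Hes and Hey repressors. In the epidermis the pathway is known for driving basal cells out of the cycle and into differentiation, and NOTCH3 is best known from vascular smooth muscle and pericytes.

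The libraries held 16219445 to 23494436 reads in genes, and 3 reads, taken here as the smallest detectable level, equal 0.128 to 0.185 CPM (reads scaled to library size), a limit that covers counting error only. Nfat5 itself had 408 and 929 reads in the WT libraries and 715 and 770 in the libraries labelled Nfat5-/- (log2 fold change 0.09, SE 0.26, edgeR adjusted p = 0.913). These reads do not separate the genotypes, and whether they include the deleted part of the gene is not given in the sources used here, so the second group is called "labelled Nfat5-/-" throughout. The KC keratins Krt5 and Krt14 stood at 4990 to 5775 and at 5148 to 6985 RPKM (exon reads corrected for exon length and library size), respectively.

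None of the Notch genes passed the test between the labelled genotypes. The test was the edgeR quasi-likelihood test on gene reads, with p-values adjusted over all 12614 genes tested by the Benjamini-Hochberg method and a threshold of 0.05. Hey1 fell under the filter on low reads, so 9 of the 10 genes were tested. Of these, 0 were called, where the same test called 160 genes in all, or 1.27%. Without adjustment, 2 had a p under 0.05, Notch3 with higher and Jag2 with lower values in the libraries labelled Nfat5-/-, beside 14.6% of all genes tested. DESeq2 called 1, Jag2 (adjusted p = 0.0485), and left Notch3 at an adjusted p of 0.0760, beside 3.16% of all genes it tested that were called. The RPKM ranges of WT and the other group were apart in 5 of the 9, 3 higher and 2 lower, beside 46.5% of all genes tested. In 7 of the 9 the log2 fold change was smaller than 0.25 in either direction, and the widest 95% bound among these 7 was 0.60. The median log2 fold change was -0.04 over the 9 genes and -0.0101 over all genes tested.

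**Figure D1:**
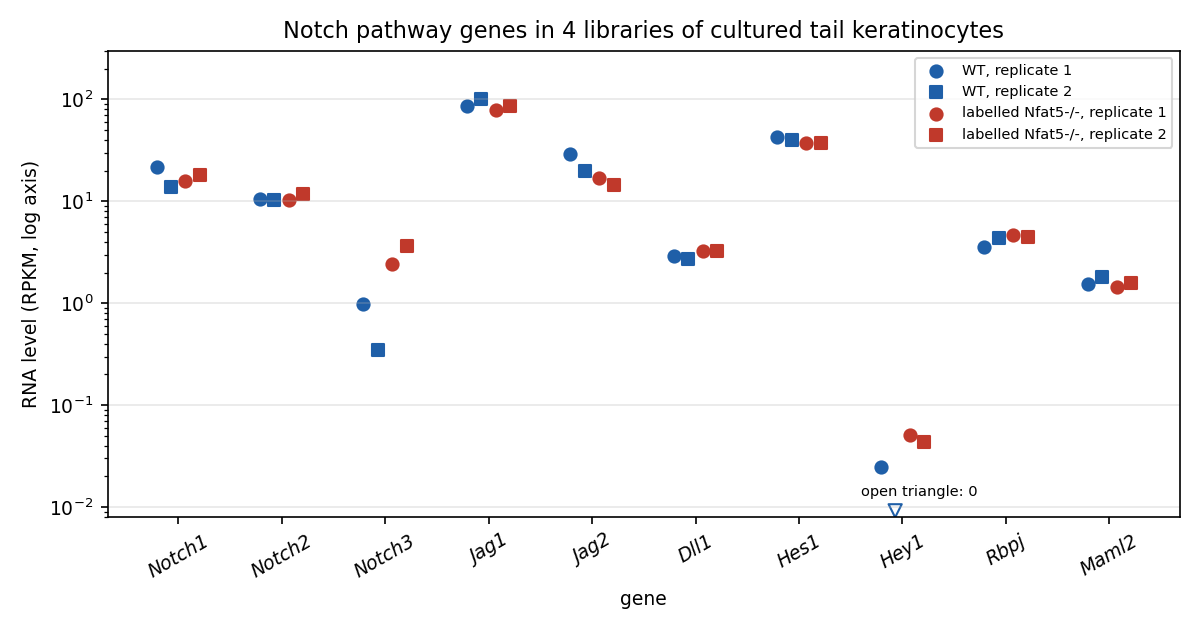
RNA level of each Notch gene in RPKM on a log axis, with 1 point per library; blue points are WT, red points are the libraries labelled Nfat5-/-, circles are replicate 1 and squares replicate 2, and the open triangle stands for a value of 0. Notch3 lies at 0.348 and 0.972 RPKM in WT, compared with 2.44 and 3.68 RPKM in the other group, while Jag1 tops all libraries and Hey1 lies lowest.

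**Figure D2:**
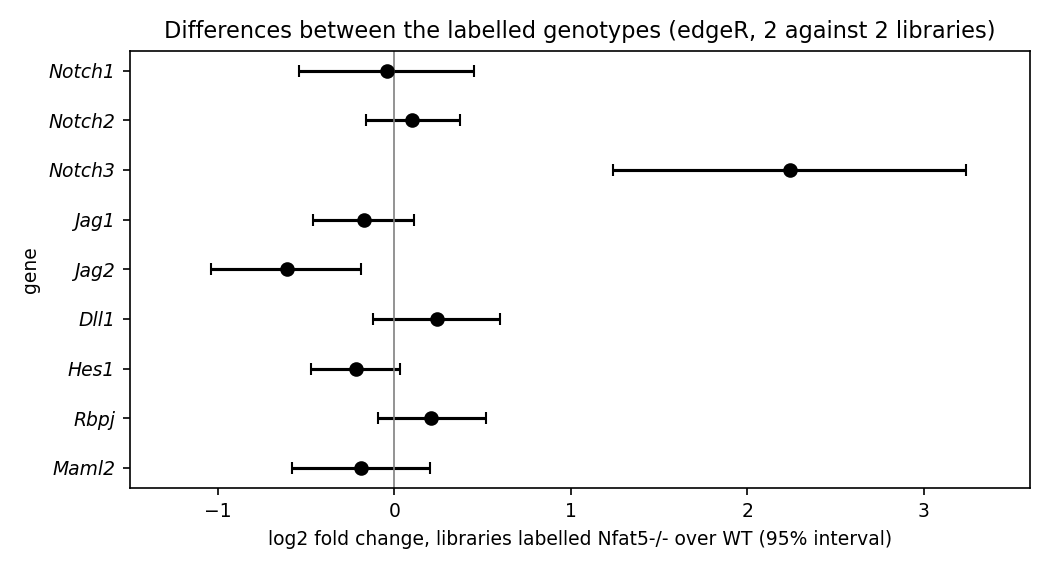
Log2 fold change of the 9 tested genes (libraries labelled Nfat5-/- over WT, edgeR) with 95% intervals, from 2 libraries in each group. The intervals of Notch3 (1.24 to 3.24) and Jag2 (-1.04 to -0.19) exclude 0 before adjustment for the number of genes tested.

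On the RPKM scale, which corrects for exon length and so allows genes to be compared, the order of mean levels in WT was Jag1, Hes1, Jag2, Notch1, Notch2, Rbpj, Dll1, Maml2, Notch3 and Hey1. Of these neighbours, Jag2 and Notch1 were the only pair whose 2 libraries overlapped. In the libraries labelled Nfat5-/- Notch1 and Jag2 again overlapped, and Notch3 ranked next to Dll1, which it overlapped.

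The promoters of Notch3 and Jag2 are shown because these genes had the smallest p-values of the Notch genes. RefSeq entries of 250 bases before to 50 bases after a transcript start (build GRCm38.p6) were found for 8 of the 10 genes, in 11 promoters, with none for Hes1 and Hey1. Capitals mark a match to CACGNG, the E-box-like class bound by Hes and Hey repressors. It begins 204 bases before the start of Notch3 (chr17:32166841-32167140, minus strand) and 18 bases after the start of Jag2 (chr12:112929446-112929745, minus strand).
Notch3: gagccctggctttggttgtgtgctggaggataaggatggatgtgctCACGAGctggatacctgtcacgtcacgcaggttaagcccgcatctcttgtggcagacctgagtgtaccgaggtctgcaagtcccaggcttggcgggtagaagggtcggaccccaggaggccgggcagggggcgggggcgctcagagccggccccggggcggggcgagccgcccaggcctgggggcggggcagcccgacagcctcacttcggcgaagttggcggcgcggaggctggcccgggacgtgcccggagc
Jag2: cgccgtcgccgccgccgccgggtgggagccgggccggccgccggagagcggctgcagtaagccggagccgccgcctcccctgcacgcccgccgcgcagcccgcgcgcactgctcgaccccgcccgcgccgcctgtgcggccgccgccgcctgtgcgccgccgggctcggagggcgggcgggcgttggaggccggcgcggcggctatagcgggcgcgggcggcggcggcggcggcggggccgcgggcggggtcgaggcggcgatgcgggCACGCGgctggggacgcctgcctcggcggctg
Both strands were searched. CACGNG was found in promoters of 5 genes (Notch2, Notch3, Jag1, Jag2 and Dll1), and in 27.5% of the 32851 promoters of the table. The RBPJ motif TGGGAA was found in promoters of Rbpj and Maml2, and in 25.6% of all promoters. The NFAT core TGGAAA, which differs from it by 1 base so that no site matches both, was found in promoters of the same pair, and in 21.4% of all. The promoters and motifs were chosen after values and matches had been seen, and longer or narrower forms of the RBPJ and Hes motifs had been searched first. CACGNG was settled on after that. A match describes letters, not binding.

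Among the receptors, Notch3 showed the largest difference. This gene (chr17:32120820-32166880, minus strand, GRCm38) had 134 and 64 reads in WT, compared with 481 and 572 in the libraries labelled Nfat5-/-. On the RPKM scale these were 0.972 and 0.348 in WT (0.660 ± 0.441, SD, n = 2) and 2.44 and 3.68 in the other group (3.06 ± 0.879, SD, n = 2). Both libraries labelled Nfat5-/- lay above both WT libraries, at a ratio of means of 4.63, and the WT libraries themselves lay far apart. The log2 fold change was 2.24 (SE 0.43, 95% interval 1.24 to 3.24), with an unadjusted p of 0.00105 and an adjusted p of 0.0628 by edgeR, which misses the threshold. Without WT replicate 1 it was 3.14 (adjusted p = 0.00146), and without WT replicate 2 it was 1.65 (adjusted p = 0.0111). Without replicate 1 or replicate 2 of the libraries labelled Nfat5-/- it was 2.52 (adjusted p = 0.137) or 1.89 (adjusted p = 0.377). In such a fit the spread within genotypes comes only from the group that kept 2 libraries, and the lone library is assumed to vary like them, so leaving out a WT library also takes the distance between the WT libraries out of the test. Among the 11 alternative settings that kept all libraries, the threshold was passed in 5. These include the fit with no filter on low reads, which called 1137 of all genes where the filtered fit called 160.

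Notch1, the receptor best known for KC differentiation, was the most abundant at 21.8 and 13.8 RPKM in WT, compared with 15.7 and 18.3 RPKM in the libraries labelled Nfat5-/-. The groups overlapped, and the log2 fold change was -0.04 (SE 0.21, 95% interval -0.54 to 0.45, adjusted p = 0.947 by edgeR). Without WT replicate 1 its sign turned (0.33). Notch2 stood at 10.6 and 10.3 RPKM in WT, compared with 10.4 and 11.9 RPKM in the other group, again with overlap. Its log2 fold change was 0.10 (SE 0.11, 95% interval -0.16 to 0.37, adjusted p = 0.728 by edgeR).

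Set against the summed RPKM of Notch1 to Notch4, Notch3 made up 2.89% and 1.42% in WT, compared with 8.46% and 10.8% in the libraries labelled Nfat5-/-. Notch1 took the largest share in all 4 libraries, from 53.7% to 64.8%. Notch4, the receptor known from endothelium, stayed at or under 0.792%.

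Of the ligands, Jag1, a Jagged ligand of the epidermis, was the most abundant Notch gene in each library. It had 86.1 and 101 RPKM in WT, compared with 77.8 and 86.6 RPKM in the libraries labelled Nfat5-/-. The groups overlapped, with a log2 fold change of -0.17 (SE 0.12, 95% interval -0.46 to 0.11, adjusted p = 0.576 by edgeR). Jag2, the other Jagged ligand (chr12:112907819-112929776, minus strand), had 2480 and 2258 reads in WT, compared with 2093 and 1430 reads in the other group. Per length these were 29.0 and 19.8 RPKM in WT (24.4 ± 6.49, SD, n = 2) against 16.9 and 14.5 RPKM (15.7 ± 1.69, SD, n = 2). All Jag2 values of the libraries labelled Nfat5-/- lay below those of WT, and the WT mean was 1.55 times higher. The log2 fold change was -0.61 (SE 0.18, 95% interval -1.04 to -0.19), with an unadjusted p of 0.0109 and an adjusted p of 0.184 by edgeR. Without WT replicate 2 it was -0.87 (adjusted p = 0.00917), and without WT replicate 1 it was -0.30 (adjusted p = 0.478). The spread in these fits came from the libraries labelled Nfat5-/- alone, as for Notch3. Among the 12 alternative settings that kept all libraries, the threshold was passed in 2, DESeq2 and the fit with no filter on low reads.

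Dll1, a Delta-like ligand, was scarce, at 2.94 and 2.69 RPKM in WT, compared with 3.27 and 3.26 RPKM in the libraries labelled Nfat5-/-. The groups did not overlap, but the log2 fold change of 0.24 (SE 0.15, 95% interval -0.12 to 0.60) did not pass the test (adjusted p = 0.528 by edgeR). Jag1 made up 73.0% to 83.0% of the summed RPKM of the 5 ligands, and Jag2 24.5% and 16.0% in WT, compared with 17.3% and 13.9% in the other group. Dll4, the endothelial ligand, had 0 RPKM in each library.

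Hes1, the classical Notch target and a transcriptional repressor, was well expressed, with 42.8 and 39.9 RPKM in WT, compared with 37.5 and 37.3 RPKM in the libraries labelled Nfat5-/-. The groups did not overlap, and the log2 fold change was -0.22 (SE 0.11, 95% interval -0.47 to 0.03, adjusted p = 0.400 by edgeR). Hey1, a repressor of the same class, had 1 and 0 reads in WT, compared with 3 and 2 reads in the other group. All these lie at or under the limit of 3 reads, so no fold is given, and a difference was not detectable at this depth.

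The tables also count reads in introns and reads that join exons, and these were tested after the Notch genes' read counts had been seen. In Hes1, intron reads numbered 126 and 122 in WT, compared with 39 and 48 in the libraries labelled Nfat5-/-. They made up 10.8% and 8.60% of its reads in WT, compared with 2.86% and 4.39% in the other group, without overlap. Its intron log2 fold change was -1.38 (SE 0.26, 95% interval -1.95 to -0.81), with an unadjusted p of 0.000203 and an adjusted p of 0.129 by edgeR. The exon-exon reads of Hes1 overlapped between the groups, at 8.82 and 7.36 CPM in WT, compared with 8.81 and 8.90 in the other group (log2 fold change 0.12, SE 0.16, adjusted p = 0.821 by edgeR).

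In Jag1, intron reads numbered 78 and 125 in WT, compared with 60 and 62 in the libraries labelled Nfat5-/-, with an intron log2 fold change of -0.58 (SE 0.24, adjusted p = 0.364 by edgeR). The intron reads thus called 0 of the 5 Notch genes that had enough of them, beside 0.0871% of all genes tested on introns. Hes1 and Jag1 had an unadjusted p under 0.05, as had 12.2% of all genes in that test. The exon-exon reads called 1 of 9, Notch3, beside 1.33% of all genes tested. Those of Notch3 numbered 29 and 13 in WT, compared with 109 and 126 in the libraries labelled Nfat5-/- (log2 fold change 2.31, SE 0.40, adjusted p = 0.0338 by edgeR).

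**Figure D3:**
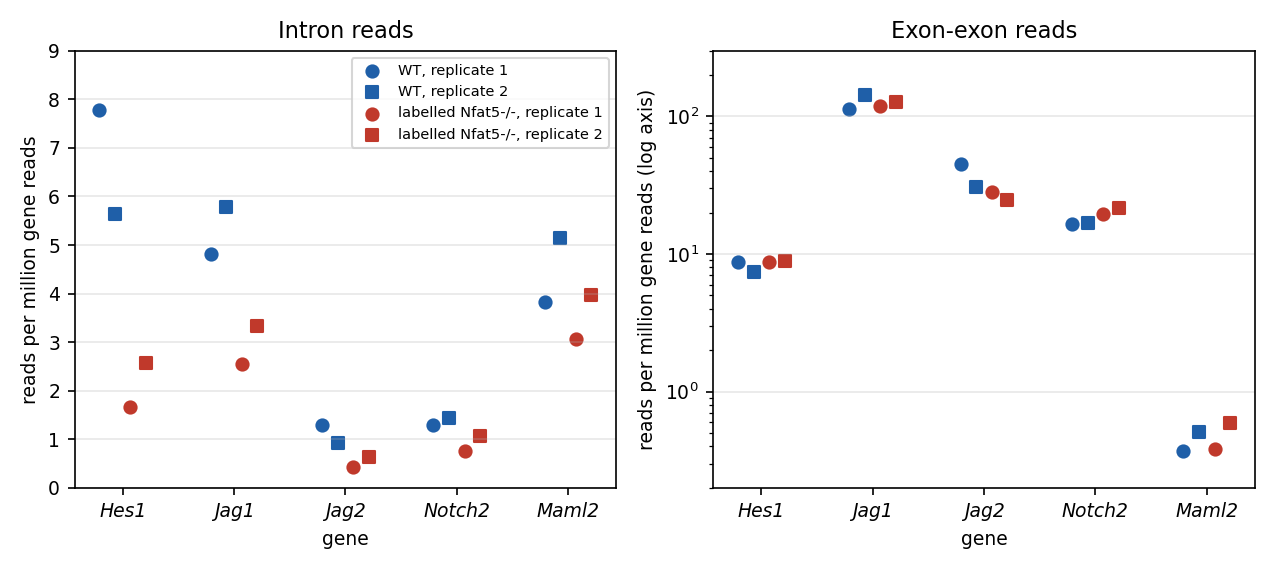
Intron reads (left, linear axis) and exon-exon reads (right, log axis) in CPM of the 5 Notch genes tested on intron reads, with 1 point per library and colours and marks for group and replicate as given in the legend. Hes1 intron reads lie at 7.77 and 5.64 in WT, compared with 1.66 and 2.57 in the libraries labelled Nfat5-/-, while its exon-exon reads overlap.

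In the nuclear complex, Rbpj, the DNA-binding partner of all Notch receptors, had 3.58 and 4.32 RPKM in WT, compared with 4.66 and 4.42 RPKM in the libraries labelled Nfat5-/-. The groups did not overlap, and the log2 fold change was 0.21 (SE 0.13, 95% interval -0.09 to 0.52, adjusted p = 0.510 by edgeR). Its values are uncertain, because only 16.8% of its exon reads were placed at a single site, and with those reads alone the log2 fold change was -0.19. Maml2, a Mastermind-like co-activator, had 1.56 and 1.79 RPKM in WT, compared with 1.43 and 1.58 RPKM in the other group, with overlap (log2 fold change -0.19, SE 0.17, 95% interval -0.58 to 0.20, adjusted p = 0.663 by edgeR). Introns held 24.0% to 29.8% of its reads.

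Of 91 other genes of the pathway, written as 8 lists, 74 were tested and 0 were called by edgeR. Without adjustment, 13 had a p under 0.05, 9 with higher and 4 with lower values in the libraries labelled Nfat5-/-, where 14.6% of all genes tested did. DESeq2 called 3 of the 76 it tested, beside its 3.16% over all genes. These were Dtx4 (adjusted p = 0.0211) and Cdkn1a (adjusted p = 0.00522) with higher values, and Mib2, a ubiquitin ligase for ligands, with lower values (adjusted p = 0.0123). In edgeR the log2 fold change of Mib2, named after its values were seen, was -0.91 (SE 0.22, adjusted p = 0.112). The median log2 fold change of the 74 was 0.06. By the adjusted p, edgeR called 1.27% of all genes tested.

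All 10 ADAM proteases, Furin and γ-secretase genes were tested, and their largest difference was that of Aph1c (log2 fold change -0.36, adjusted p = 0.708 by edgeR). Aph1a, the most abundant of them, lay between 57.5 and 63.3 RPKM in the 4 libraries. Of the glycosyltransferases, which sugar-coat the receptors, Gxylt2 (-0.48) and Gxylt1 (0.46) had the largest log2 fold changes. Hes6 was the only other Hes or Hey gene with enough reads to be tested, at 16.4 to 20.6 RPKM.

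Larger differences were found for some regulators. Dtx4, a Deltex ubiquitin ligase, had 0.198 and 0.282 RPKM in WT, compared with 0.778 and 0.709 RPKM in the libraries labelled Nfat5-/- (log2 fold change 1.53, SE 0.28, adjusted p = 0.0562 by edgeR). Nrarp, a target that feeds back on the Notch complex, had 6.64 and 5.88 RPKM in WT, compared with 8.68 and 10.3 RPKM in the other group (0.62, SE 0.15, adjusted p = 0.120 by edgeR). Neither gene overlapped between the groups and neither passed the threshold in edgeR. Fhl1, a LIM protein also abundant in muscle, had a log2 fold change of 1.23 (adjusted p = 0.114 by edgeR), and Neurl1b, a ubiquitin ligase for ligands, of -1.01 (adjusted p = 0.229 by edgeR).

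Of the 13 KC genes linked to Notch that were tested, Krt1, an early differentiation keratin, had the largest log2 fold change (1.75, SE 0.63, adjusted p = 0.275 by edgeR), followed by the cytokine gene Tslp (-1.36, SE 0.41, adjusted p = 0.190 by edgeR). Krt1 stayed under 1 RPKM, at 0.172 and 0.147 in WT, compared with 0.271 and 0.811 in the other group. Tslp had 76.4 and 28.0 RPKM in WT, compared with 21.4 and 19.0 RPKM, so that WT replicate 1 alone lay far above the rest, and replicate 2 of the libraries labelled Nfat5-/- stood apart for Krt1. Cdkn1a, the p21 cell cycle inhibitor, was the most abundant of them, with 189 and 204 RPKM in WT, compared with 257 and 289 RPKM in the libraries labelled Nfat5-/- (0.50, SE 0.11, adjusted p = 0.0968 by edgeR).

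**Figure D4:**
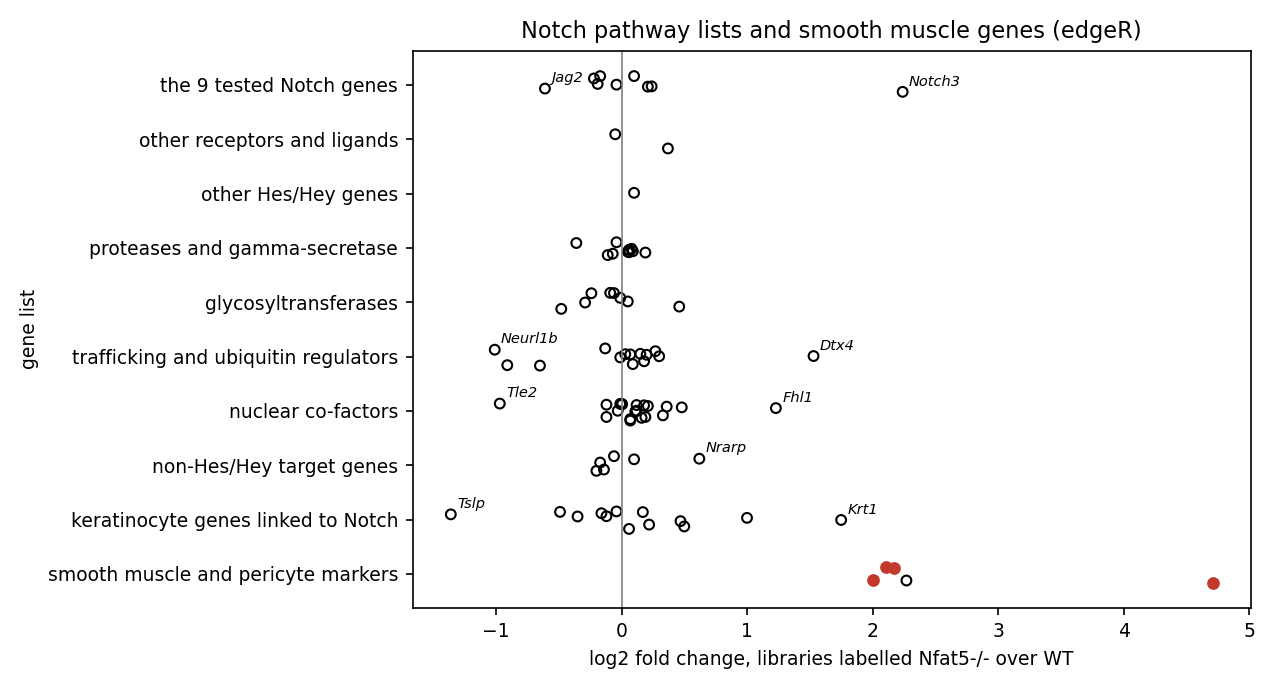
Log2 fold change (libraries labelled Nfat5-/- over WT, edgeR) of the tested genes of each list, with 1 point per gene spread vertically for legibility; filled red points passed the threshold and open points did not. In the Notch pathway lists 0 of 74 genes passed, and Notch3 lies at 2.24. The smooth muscle and pericyte list was written with the knowledge that such genes differ in these data, so its range is no measure for Notch3. Of its 5 genes that passed the filter on low reads, Myh11 did so only through the group where it is high.

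Some markers of smooth muscle and pericytes rose, the direction in which the Notch3 values differed. Of the 9 listed, 5 were tested, and all 5 had higher values in the libraries labelled Nfat5-/-. Of these, edgeR called Acta2, Tagln, Myh11 and Cnn1 but not Mylk (log2 fold change 2.27, adjusted p = 0.102 by edgeR). That is 4 of 5 called, where edgeR called 1.27% of all genes tested. The filter on low reads bears on this count, since Myh11 (1 and 1 reads in WT, compared with 22 and 40) passed it only through the group where it is high and Mylk (8 and 9 reads, compared with 32 and 56) lay low in WT too. Acta2, which encodes smooth muscle actin, had 164 and 134 RPKM in WT, compared with 450 and 723 RPKM in the other group (log2 fold change 2.00, SE 0.23, adjusted p = 0.0192 by edgeR). The summed level of the list was 151 to 184 RPKM in WT and 518 to 820 RPKM in the libraries labelled Nfat5-/-. Rgs5, a defining pericyte gene, had 0 reads in each library, and Des, the desmin gene of muscle, had at most 1. Cspg4, another pericyte marker, had too few reads to be tested and lay the other way, at 0.0963 and 0.0445 RPKM in WT, compared with 0.0409 and 0.0322 RPKM in the other group, without overlap. The part of these markers in the Notch3 values was not tested, and in bulk RNA a change in the number of cells of a type and a change of RNA per cell cannot be told apart. The list was written with the knowledge that such genes differ in these data.

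The other marker lists held fewer calls, against the same 1.27% over all genes. None of the endothelial (3 tested), fibroblast (2 tested) and immune (3 tested) markers passed. Of the others, edgeR called 1 melanocyte marker lower (Tyrp1), 1 hair follicle marker higher (Krt17) and 1 KC marker lower (Lamb3).

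By the distance between log2 CPM profiles over the 4 libraries, centred on their means, the genes most like Notch3 included Bgn (distance 0.28) and Gria3 (distance 0.48). Gria3, which encodes a glutamate receptor subunit, stood at 0.175 and 0.0821 RPKM in WT, compared with 0.370 and 0.543 RPKM in the libraries labelled Nfat5-/-. Bgn, a matrix proteoglycan gene, stayed under 1 RPKM in each library.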

How the data were processed

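RNA of 4 tail KC libraries was measured, grouped by genotype from the sample titles. The authors sequenced polyadenylated RNA, mapped the reads with the CLC Genomics Workbench and deposited, for each gene (build GRCm38 per the labels), raw read counts in the whole gene, its exons, its introns and across exon junctions, with the uniquely placed reads. They also deposited RPKM values, in which each library had its own total as divisor, 16625788 to 24087007 mapped reads, beside exon length. The aligner's handling of strand is not given in the sources used here. Of the genes overlapping Notch2 (2) and Maml2 (4), none had a read.

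Gene counts were tested in R 4.3.3 with edgeR 4.0.16 (filterByExpr, TMM factors 0.980 to 1.01, quasi-likelihood fit with genotype as the sole term, two-sided, Benjamini-Hochberg over 12614 genes). SE is the log2 fold change divided by the square root of F. Alternatives used DESeq2 1.42.0, limma 3.58.1 on log2(RPKM + 0.1) and log2(RPKM + 1), other scalings, filters and read classes, a threshold of 0.1, a replicate block and each library left out. Exon-exon and intron reads were added after the data were seen. DESeq2's independent filter was set to the threshold of 0.05 after a first run at its default had been seen, which changed no call of a Notch gene. RPKM ratios had no test, since an exact permutation test of 2 against 2 libraries cannot go below p = 0.333.

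Members, lists and tests were chosen with earlier results of these data known. Named genes are the members, Nfat5, in each pathway list any gene past the threshold, the 2 largest log2 fold changes and the most abundant gene, marker genes beside a member's result, and the 3 genes with profiles closest to the member with the smallest p. Not all of these are printed, and 1 of the genes with close profiles is not reported here. In simulated counts edgeR found 149 of 198 genes altered 2-fold (12473 tested, 20 false calls) and 188 of 198 altered 4-fold (12510 tested, 27 false calls), and called 0 of 12490 when nothing was altered. To look for repeat deposits of a library, replicates were compared by chi-square (17.8 per degree of freedom in WT, 18.4 in the other group), and all 4 were kept as separate samples.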

Additional observations from a re-analysis of the deposited data

How the results depend on the processing

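The number of Notch genes past the threshold, 0 with total gene reads, was 1 with library totals as the only scaling (Notch3), 2 with no filter on low reads (Notch3 and Jag2), 1 with DESeq2 (Jag2), and 1 each with uniquely placed exon reads, limma on log2(RPKM + 1), exon-exon reads and a threshold of 0.1 (Notch3 each time). With each library left out it ranged from 0 to 2. For all genes, 160 became 1137 with no filter, 416 with DESeq2, 5 with intron reads, 364 with a threshold of 0.1 and 16 to 478 with each library left out. For the pathway lists, 0 became 1 with library totals, at least 10 reads in every library, exon reads or uniquely placed exon reads (Dtx4 each time), 1 with exon-exon reads (Cdkn1a), 10 with no filter, 3 with DESeq2, 2 with a threshold of 0.1 and 0 to 5 with each library left out. The cause of these differences was not tested. Signs turned for Notch1 with a library left out (log2 fold change -0.34 to 0.33), for Notch2 with a library left out (-0.01 to 0.21) and on intron reads (-0.31), for Hes1 (0.12) and Maml2 (0.08) on exon-exon reads and for Rbpj on uniquely placed exon reads (-0.19). With the replicate block 0 Notch genes, 0 pathway genes and 132 of all genes passed (Notch3 2.30, adjusted p = 0.0922 by edgeR), and same-numbered libraries did not deviate together (correlation -0.0652), so the numbers were not taken as pairs. With each library left out, the Notch3 ratio of RPKM means, 4.63 over all libraries, ranged from 3.15 (without WT replicate 2) to 8.79 (without WT replicate 1). With 2 libraries in each group, outlying libraries could not be tested for, and at these depths Hey1 could not be compared.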
